A study of Rattus norvegicus and Mus musculus with 12 samples.

Results

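The genes described here encode the integrins, the laminins and fibronectin. They were taken from the rat and mouse tables by symbol, as every numbered Itga, Itgb, Lama, Lamb or Lamc gene together with Itgal, Itgam, Itgav, Itgax, Itgad, Itgae and Fn1. This gave 36 of the 19687 rat genes and 38 of the 28603 mouse genes. Itgam and Lama3 matched no rat symbol and were not analysed in rat here. Counts cover all members, and some members are not described by name or drawn.

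The libraries came from cultured chondrocytes, the cells of cartilage, taken from articular cartilage of rats (strain label SD) and mice newborn within 24 h and used at passage 1. Each of the groups RC (rat control), RM (rat model), MC (mouse control) and MM (mouse model) had 3 libraries. IL-1β, a cytokine that drives inflammation, was given to the RM and MM cells at 20 ng/ml for 24 h, and the RC and MC cells went without it. The strain label was C57BL/6 for MC1, C57BL/7 for MC2 and MM1, C57BL/8 for MC3 and MM2 and C57BL/9 for MM3, whereas the methods name C57BL/6 mice. The totals of counted reads were 24897458, 23223930 and 21114361 in RC and 20169272, 25903459 and 23953789 in RM. They were 17118481, 16841580 and 17957308 in MC and 20048322, 19560813 and 17482589 in MM. At these totals a count of 0 allows up to 3 counts, which is 0.116 to 0.178 CPM (counts scaled to the library total) and covers counting error only. The methods speak of independent samples without saying whether these were separate animals or cultures. The P values therefore measure the spread between these samples, which may be technical.

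Integrins are receptors that join the cell to its matrix, and each consists of an α subunit, which largely sets the ligand, and a β subunit. Laminins are trimers of an α, a β and a γ chain that form basement membranes and, in cartilage, part of the thin matrix around the chondrocyte. Fibronectin is a dimeric matrix glycoprotein that integrins such as α5β1 bind and assemble into fibrils, and chondrocytes hold collagen II through α10β1 and its relatives.

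The labelled cell type was checked with chondrocyte markers. That list held 14 symbols, among them Cnmd and its older symbol Lect1, and 13 were in each table. Their summed FPKM (counts scaled to gene length and to the library total) was 5190, 5770 and 5140 in RC and 2450, 2420 and 2470 in MC. The marker with the highest level was Col2a1, the chain of collagen II, with a mean FPKM of 2840 in RC and 1350 in MC. The sums were 2040, 2070 and 2030 in RM and 213, 218 and 227 in MM, and 13 of 13 markers fell in rat and 13 of 13 in mouse. The largest falls were those of Acan and Snorc in rat (log2 fold change -1.80 and -1.72, edgeR adjusted P = 3.11e-07 and 6.78e-06) and of Matn3 and Cnmd in mouse (-7.08 and -5.07, edgeR adjusted P = 2.39e-53 and 4.07e-64), among genes with a mean FPKM of 10 or more in a group. Itga10, one of the integrins described below, is itself on this list. Bulk RNA cannot tell fewer cells of a type from less RNA per cell, and this holds for each change given here. The treatment was visible in 8 of 8 IL-1 response genes, which rose in both species. Mmp3, a matrix protease, had a mean FPKM of 13.3 in RC, 817 in RM, 0.954 in MC and 7970 in MM. The 2 largest rises per species were those of Mmp3 in both (log2 fold change 5.92 in rat and 13.3 in mouse), Cxcl1, a chemokine, in rat (log2 fold change 6.02, edgeR adjusted P = 4.34e-10) and Il6, a cytokine, in mouse (12.51, edgeR adjusted P = 3.16e-74).

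A member was counted as expressed when its mean FPKM was 1 or more in a group. In rat 21 of 36 members were expressed, 19 of them in both groups and 2 (Itga2 and Itgb8) in RM alone. In mouse 27 of 38 members were expressed, 21 in both groups, 5 in MC alone (Itga1, Itga2b, Lama2, Lama3 and Lamb3) and 1 in MM alone (Itgb2). The rat members nearest to the threshold from above were Itgb8, Itgae and Itga2, whose higher group mean was 1.16, 1.38 and 2.21 FPKM, and from below Lama5, Itga4 and Itgb3 with 0.913, 0.839 and 0.808 FPKM. In mouse they were Lama3, Lama2 and Itga2b with 1.16, 1.26 and 1.29 FPKM from above and Itgb4, Itga8 and Lamc3 with 0.935, 0.92 and 0.607 FPKM from below. Levels are compared between genes within a table, because the rat and mouse tables were normalised separately.

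**Figure D1:**
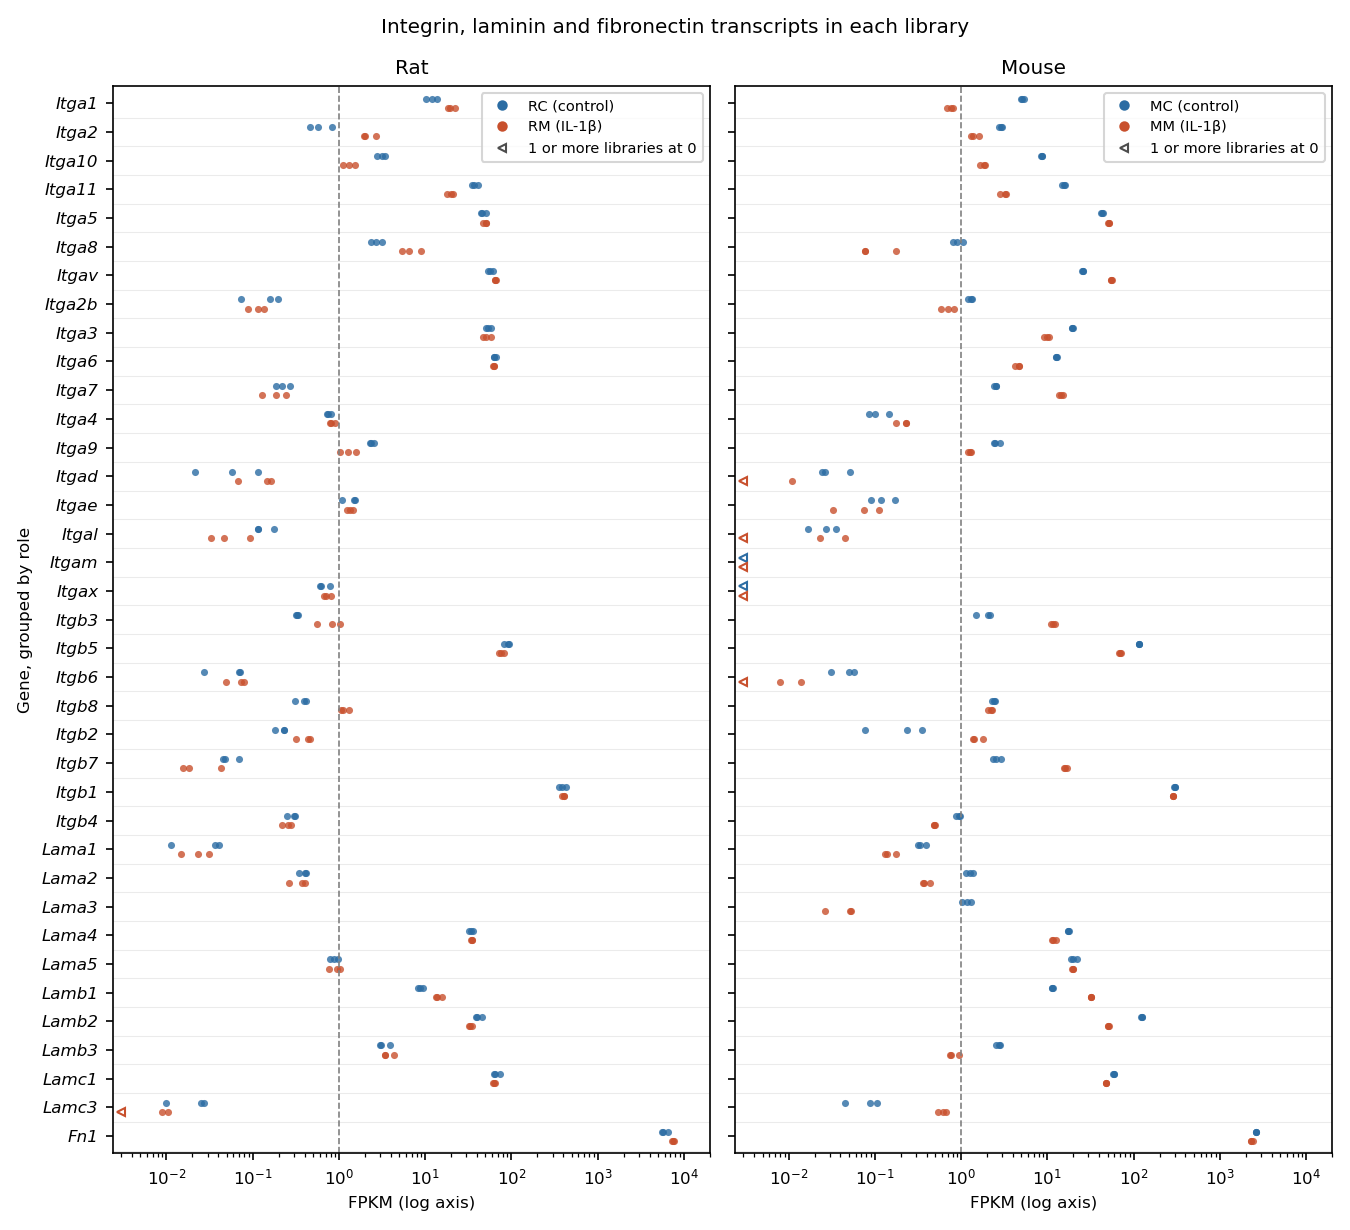
FPKM of integrin, laminin and fibronectin genes on a log axis, with 1 point per library (blue for RC or MC, red for RM or MM), the dashed line at FPKM 1 and open triangles for libraries at 0. Fn1 lies highest in both species, Itgb1 is the highest integrin gene, and the groups of Itga10 and Itga11 are apart in both panels.

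The comparison of RM with RC and of MM with MC asked which of these genes changed with IL-1β in each species. A gene was called when its adjusted P from edgeR's quasi-likelihood test (Benjamini-Hochberg adjustment over all genes tested in the species) was under 0.05. In rat 32 of the 36 members passed the filter on low counts, 8 of these were called as higher in RM (25%, against 18.3% of all 13303 genes tested) and 5 as lower (15.6%, against 16.8%). The median absolute log2 fold change of the members tested was 0.269, beside 0.256 over all rat genes tested. In mouse 32 of the 38 members were tested, 13 were called as higher in MM (40.6%, against 37.4% of all 14774 genes tested) and 17 as lower (53.1%, against 37.7%). Their median absolute log2 fold change was 1.2, beside 0.515 over all mouse genes tested, and their median log2 fold change was -0.369, beside -0.016. The spread between libraries of a group, as edgeR's common biological coefficient of variation, was 0.106 in rat and 0.0318 in mouse. Smaller changes could thus be called in mouse, so the numbers of calls do not measure the response of each species alone.

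The study's criteria, as read here, asked for FPKM 1 or more in some library, a log2 change of 0.85 or more up or down, and P under 0.05 before adjustment. By these criteria 4 rat members were upregulated (12.5%, against 4.64% of all genes tested), namely Itga2, Itga8, Itgb3 and Itgb8, and 3 were downregulated (9.38%, against 3.9%), namely Itga10, Itga11 and Itga9. In mouse 7 were upregulated (21.9%, against 12.6%), among them Itga7, Itgav, Itgb2, Itgb3, Itgb7 and Lamb1, and 9 were downregulated (28.1%, against 13%), namely Itga1, Itga10, Itga11, Itga6, Itga8, Lama2, Lama3, Lamb2 and Lamb3. Rat Itga2, Itgb3 and Itgb8 and mouse Itgb2 reached FPKM 1 in libraries of the model group alone. Mouse Itga1, Itga8, Lama2, Lama3 and Lamb3 reached it in MC libraries alone. The FPKM criterion thus admitted these members through the group where they were high, and their number is no separate support for a change. Rat Itgb3 met the FPKM criterion through RM3 alone, so the rat count upregulated was 3 without RM3. Itga9 left the rat criteria without RM1, which gave a count downregulated of 2. Mouse Itga8 met the FPKM criterion through MC1 alone, and the mouse count downregulated was 8 without MC1.

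Scaling mattered in mouse. Fold changes are given after TMM scaling, which allows for a few very abundant genes, and scaling by library size alone shifted the median over the mouse genes tested by -0.279 on the log2 scale (0.0158 in rat). The split of mouse members called was 13 higher and 17 lower with TMM and 10 higher and 20 lower with library size alone, beside 37.4% and 37.7% of all mouse genes tested with TMM and 25% and 54.7% with library size alone. The direction of Fn1, Itgb1, Lama5 and Itgb8 in mouse turns from higher to lower with library size alone, and Lamc1 becomes called as lower. Of these, Itgb8 was not called with either scaling.

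**Figure D2:**
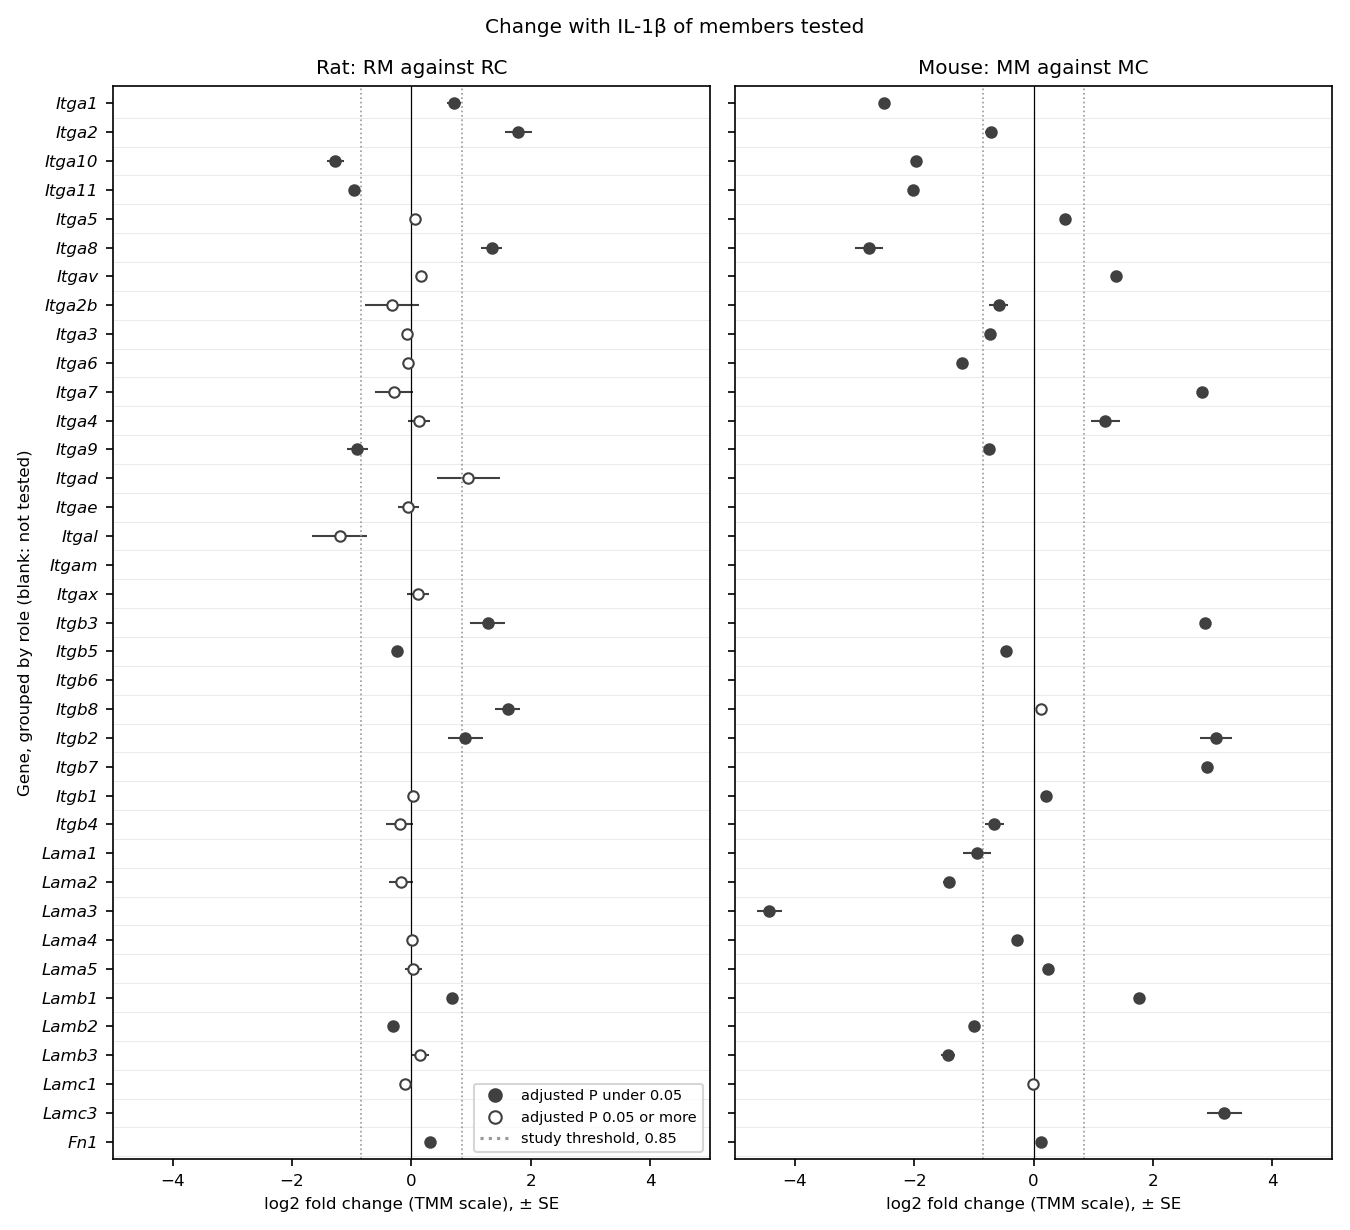
Log2 fold change of model against control on the TMM scale for members tested, with the standard error, in rat (left) and mouse (right). Filled points have an adjusted P under 0.05, the dotted lines mark 0.85 in either direction, and in mouse Fn1, Itgb1, Lama5 and Itgb8 lie below 0 with library size alone.

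The collagen-binding α subunits, α1, α2, α10 and α11, all pair with β1. In rat Itga1 and Itga2 rose while Itga10 and Itga11 fell, and in mouse each of these 4 genes fell. Itga10 (ENSRNOG00000021217 in rat, ENSMUSG00000090210 in mouse), the collagen II receptor subunit typical of chondrocytes, had FPKM of 3.13, 3.44 and 2.78 in RC and 1.52, 1.3 and 1.11 in RM. In mouse its FPKM was 8.62, 8.48 and 8.69 in MC and 1.92, 1.65 and 1.86 in MM. Each model library lay below each control library in both species. Itga10 fell by 1.27 ± 0.14 (SE) in rat (edgeR adjusted P = 7.6e-05) and changed by -1.97 ± 0.079 in mouse (edgeR adjusted P = 2.8e-32) on the log2 scale. In GRCm38 the gene is at chr3:96645584-96664519 on the plus strand. There 33.5% of its exon bases are shared with Gm42957 on the same strand, and how reads from these bases were counted is not known.

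Itga11 encodes the receptor subunit of mesenchymal cells for fibrillar collagens. Its FPKM was 35, 41.3 and 36.4 in RC and 19.7, 21.2 and 18 in RM, and 15.7, 14.9 and 15.9 in MC and 2.85, 3.34 and 3.27 in MM. The groups were again apart, and Itga11 was the highest of the 4 collagen-binding genes in each control group. Its change was -0.95 ± 0.09 in rat (edgeR adjusted P = 2.24e-05) and -2.02 ± 0.062 in mouse (edgeR adjusted P = 1.37e-38).

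Itga1 encodes a receptor subunit for collagens I and IV. It had FPKM of 13.7, 10.3 and 12.1 in RC and 22, 19.4 and 18.4 in RM, and 5.09, 5.33 and 5.01 in MC and 0.759, 0.69 and 0.806 in MM. Each RM library was above the RC libraries, and each MM library was below the MC libraries and below FPKM 1. On the log2 scale the change was 0.71 ± 0.11 in rat (edgeR adjusted P = 0.000651) and -2.50 ± 0.061 in mouse (edgeR adjusted P = 3.73e-44). Itga2, also a collagen receptor and known from platelets and epithelia, had FPKM of 0.843, 0.569 and 0.467 in RC and 2.67, 1.97 and 1.99 in RM. Its mouse FPKM was 2.94, 2.72 and 2.95 in MC and 1.38, 1.61 and 1.32 in MM. The rat values rest on 38 to 81 counts per RC library and 184 to 208 per RM library, and the groups did not overlap in either species. Itga2 rose by 1.79 ± 0.23 in rat (edgeR adjusted P = 0.000177), the largest rise among the rat members tested, and changed by -0.72 ± 0.095 in mouse (edgeR adjusted P = 7.92e-10).

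Itga1 and Itga2 are neighbours, at chr13:114953096-115101964 and chr13:114833081-114932100 on the minus strand of GRCm38. Because they moved together in each species and in opposite directions between species, their rat promoter windows (RefSeq, build GRCr8, minus strand) are shown, Itga1 at chr2:48545234-48545533 and Itga2 at chr2:48354460-48354759. Capitals mark a match to AACAAT, a SOX motif. The motifs TGANTCA (AP-1), GGANTTTCC (NF-κB) and AACAAT were searched on both strands in 33469 rat promoters of the same length, and 7.33%, 1.28% and 11.7% of them held a match. Of the 36 rat members 26 had a promoter in the table. Among these, AACAAT was found in 1 (Itga2, 225 bases before the start), TGANTCA in 1 (Itgax, 56 bases before the start) and GGANTTTCC in 0. A match describes the letters in the window and is not a measured binding site.
Itga1: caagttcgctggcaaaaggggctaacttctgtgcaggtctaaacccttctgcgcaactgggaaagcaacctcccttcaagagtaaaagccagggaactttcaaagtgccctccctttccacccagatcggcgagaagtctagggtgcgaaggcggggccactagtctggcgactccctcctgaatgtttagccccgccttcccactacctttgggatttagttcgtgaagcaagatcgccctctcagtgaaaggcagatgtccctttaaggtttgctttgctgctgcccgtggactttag
Itga2: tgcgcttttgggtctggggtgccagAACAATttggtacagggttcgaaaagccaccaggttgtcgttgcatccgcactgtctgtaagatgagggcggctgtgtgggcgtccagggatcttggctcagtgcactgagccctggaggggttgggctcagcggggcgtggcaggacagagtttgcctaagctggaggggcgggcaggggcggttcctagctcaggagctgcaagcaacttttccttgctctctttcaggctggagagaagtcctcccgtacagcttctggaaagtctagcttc

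The RGD-binding α subunits, α5, α8, αv and αIIb, recognise the tripeptide arginine-glycine-aspartate in fibronectin and other ligands. Itga5 (ENSRNOG00000057451 and ENSMUSG00000000555), the classical fibronectin receptor subunit, had FPKM of 44.1, 51 and 46.1 in RC and 50.2, 46.7 and 51.3 in RM. In mouse it had 43.1, 41.8 and 44.8 in MC and 50.2, 52.6 and 51.7 in MM. The rat groups overlapped, and the mouse groups did not. Its log2 fold change was 0.053 ± 0.075 in rat (edgeR adjusted P = 0.621) and 0.53 ± 0.033 in mouse (edgeR adjusted P = 1.51e-22), where library size alone gave 0.25 for Itga5. The mouse gene is at chr15:103344286-103366763 on the minus strand of GRCm38.

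Itgav encodes αv, which pairs with several β subunits and binds vitronectin, osteopontin and latent TGF-β. Its FPKM was 61.9, 56.5 and 54.1 in RC and 65.2, 64.1 and 66.1 in RM, and 25.7, 25.2 and 25.7 in MC and 54.9, 55.9 and 54.5 in MM. The groups were apart in both species, by a small margin in rat. Its log2 fold change came to 0.16 ± 0.07 in rat (edgeR adjusted P = 0.0946, and 0.018 without RC1) and 1.39 ± 0.029 in mouse (edgeR adjusted P = 1.17e-47). Itga8, whose product binds nephronectin and fibronectin, had FPKM of 3.14, 2.67 and 2.36 in RC and 9.07, 6.53 and 5.46 in RM. Its mouse FPKM was 1.05, 0.814 and 0.899 in MC and 0.176, 0.0763 and 0.0776 in MM, on 101 to 132 counts per MC library and 10 to 26 per MM library. Thus each RM library was above the RC libraries and each MM library below the MC libraries. Itga8 changed by 1.34 ± 0.18 in rat (edgeR adjusted P = 0.000203) and by -2.76 ± 0.23 in mouse (edgeR adjusted P = 1.41e-16).

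Itga2b, the platelet subunit αIIb, was below FPKM 0.2 in each rat library and was not called (edgeR adjusted P = 0.604). In mouse it lay between 1.2 and 1.35 FPKM in MC and between 0.591 and 0.839 in MM, with a log2 fold change of -0.58 ± 0.16 (edgeR adjusted P = 0.000645). Megakaryocyte and platelet markers were measured beside it. Of the 7, 5 were in the rat table with summed FPKM of 0.962, 1.26 and 1.64 in RC and 3.62, 2 and 1.55 in RM, and 6 in the mouse table with 0.478, 0.784 and 0.456 in MC and 3.5, 3.84 and 3.72 in MM. By the mean over both groups the most abundant was Pf4 in rat (mean FPKM 1.25 in RC and 2.32 in RM) and Ppbp in mouse (0.0877 in MC and 2.95 in MM), while in MC alone Gp1ba was higher (0.372). Of the 2 tested in mouse, 1 rose (50%, against 37.4% of all mouse genes tested). The 1 tested in rat was not called, where 18.3% of all genes tested rose and 16.8% fell. The part of these markers in the Itga2b values was not tested.

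The RGD codons are shown because α5, α8, αv and αIIb meet their ligands there. The genes were chosen after their values were seen, and the 8 windows cover every RGD codon triplet found in 1 coding transcript of each (GRCm38, GENCODE M21). They are in the sense of the gene, with the 9 bases for the tripeptide in capitals. Fn1 (minus strand) has its cell-binding site in exon 30 of 46 at chr1:71606746-71606754 and a further match in exon 40 at chr1:71597443-71597451. On the plus strand are Spp1, of osteopontin, in exon 7 of 8 at chr5:104439481-104439489, Vtn, of vitronectin, in exon 3 of 8 at chr11:78499706-78499714, Tgfbi in exon 15 of 17 at chr13:56637155-56637163 and Edil3 in exon 4 of 11 at chr13:89042491-89042499. On the minus strand are Npnt, of nephronectin, in exon 10 of 14 at chr3:132904665-132904673 and Mfge8 in exon 3 of 10 at chr7:79145308-79145316. The 9 bases were spelled alike in Fn1 exon 30 and Mfge8 and differed between all other windows.
Fn1 exon 30: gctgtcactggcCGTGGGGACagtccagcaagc
Fn1 exon 40: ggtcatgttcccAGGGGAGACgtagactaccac
Spp1: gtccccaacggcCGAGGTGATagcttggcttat
Vtn: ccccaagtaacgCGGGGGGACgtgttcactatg
Tgfbi: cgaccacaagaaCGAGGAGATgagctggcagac
Edil3: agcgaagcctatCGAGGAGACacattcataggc
Npnt: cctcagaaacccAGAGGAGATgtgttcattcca
Mfge8: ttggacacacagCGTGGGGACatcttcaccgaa

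These ligand genes moved in different directions. Spp1 had a mean FPKM of 2090 in RC and 4300 in RM, and 375 in MC and 3880 in MM, a log2 fold change of 1.03 in rat (edgeR adjusted P = 7.82e-06) and 3.65 in mouse (edgeR adjusted P = 2.6e-74). Tgfbi fell in both species, with a mean FPKM of 115 in RC, 65.3 in RM, 19.4 in MC and 7.06 in MM (edgeR adjusted P = 9.6e-06 in rat and 1.39e-28 in mouse). Npnt, the ligand of α8β1, had a mean FPKM of 3.03 in RC and 2.34 in RM (log2 fold change -0.39, edgeR adjusted P = 0.0725) and of 4.03 in MC and 1.35 in MM (log2 fold change -1.30, edgeR adjusted P = 2.23e-17). Mfge8 had a mean FPKM of 355 in RC and 332 in RM (edgeR adjusted P = 0.254) and of 81.5 in MC and 81.9 in MM, where it was called as higher with TMM (log2 fold change 0.29, edgeR adjusted P = 4.76e-13) but not with library size alone (0.0073, edgeR adjusted P = 0.827). Vtn had 0 to 4 counts summed over a group.

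The laminin-binding α subunits are α3, α6 and α7. In rat Itga3 and Itga6 were among the most abundant α subunit genes, and none of the 3 was called. Itga3 had FPKM of 50.5, 57.4 and 53.4 in RC and 58.2, 46.4 and 51.1 in RM, and 19.5, 19.4 and 20.1 in MC and 9.79, 9.23 and 10.5 in MM. For Itga6 the values were 66.8, 63.1 and 62.5 in RC and 62.2, 62.2 and 61.7 in RM, and 13.1, 12.6 and 12.7 in MC and 4.71, 4.27 and 4.76 in MM. The Itga3 groups overlapped in rat, those of Itga6 were apart by less than 1 FPKM, and in mouse each MM library was below the MC libraries for both genes. Log2 fold changes were -0.069 ± 0.089 for Itga3 and -0.064 ± 0.06 for Itga6 in rat (edgeR adjusted P = 0.585 and 0.446). In mouse they were -0.73 ± 0.045 and -1.20 ± 0.047 (edgeR adjusted P = 8.92e-23 and 6.11e-33).

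Itga7, best known as the laminin receptor subunit of muscle, moved the other way in mouse. Its FPKM was 2.51, 2.43 and 2.51 in MC and 15.1, 14.6 and 13.7 in MM, on 331 to 365 and 1934 to 2455 counts per library. In rat it was 0.222, 0.272 and 0.187 in RC and 0.186, 0.13 and 0.247 in RM, on 17 to 32 counts per library. The mouse groups were far apart and the rat groups overlapped. Itga7 rose by 2.82 ± 0.053 in mouse (edgeR adjusted P = 3.38e-50), and its log2 fold change in rat was -0.30 ± 0.32 (edgeR adjusted P = 0.5). Muscle markers were measured beside it, and their part in the Itga7 values was not tested. All 10 had mouse entries, 5 were tested and 4 fell (80%, against 37.7% of all mouse genes tested), the summed FPKM was 7.67, 6.97 and 6.32 in MC and 1.32, 1.16 and 1.81 in MM, and the most abundant over both groups, Des, had a mean FPKM of 2.39 in MC and 0.208 in MM, where Mylpf (0.731) and Acta1 (0.36) were higher. In rat 9 were in the table and 4 were tested, 1 rose and 1 fell (25% each, against 18.3% and 16.8%), with sums of 9.34, 9.15 and 8.62 in RC and 7.8, 7.89 and 6.74 in RM and Des again the most abundant.

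Subunits α4 and α9 bind fibronectin variants, VCAM-1, tenascin-C and osteopontin. Itga9 had FPKM of 2.53, 2.28 and 2.37 in RC and 1.04, 1.28 and 1.56 in RM, and 2.85, 2.38 and 2.49 in MC and 1.32, 1.26 and 1.22 in MM. Each model library was below each control library in both species. Its log2 fold change was -0.90 ± 0.17 in rat (edgeR adjusted P = 0.00225) and -0.74 ± 0.097 in mouse (edgeR adjusted P = 6.46e-10). Itga4, the leukocyte homing subunit, stayed below FPKM 1 throughout, with 0.725 to 0.906 in rat and 0.085 to 0.232 in mouse. Its log2 fold change was 0.13 in rat (edgeR adjusted P = 0.64) and 1.20 in mouse (edgeR adjusted P = 1.05e-05), where it rests on 20 to 37 counts per MC library and 48 to 65 per MM library.

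The leukocyte α subunits, αL, αM, αX, αD and αE, were at or near 0 in mouse. Itgam and Itgax had 0 counts in each of the 6 mouse libraries, which allows up to 0.178 CPM in the smallest, and Itgal, Itgad and Itgae had 0 to 14 counts and were not tested. Exons of Itgam overlap Gm49368 over 68.7% of their bases, so its count of 0 may depend on how reads there were assigned. In rat Itgae lay at 1.1 to 1.55 FPKM, Itgax at 0.598 to 0.804, Itgal at 0.033 to 0.178 and Itgad at 0.0216 to 0.163, and none of these 4 was called.

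Itgb2, the β subunit shared by the leukocyte integrins, rose in both species from low counts. Its FPKM was 0.229, 0.232 and 0.18 in RC and 0.315, 0.466 and 0.437 in RM, on 12 to 18 and 20 to 38 counts per library. In mouse it was 0.0766, 0.35 and 0.237 in MC and 1.41, 1.81 and 1.39 in MM, on 4 to 18 and 74 to 108 counts per library. The groups did not overlap in either species. The log2 fold change was 0.91 ± 0.3 in rat (edgeR adjusted P = 0.0362) and 3.06 ± 0.27 in mouse (edgeR adjusted P = 5.46e-16). The rat call was lost without RC1, RC2, RC3, RM2 or RM3 (adjusted P of 0.0574, 0.0743, 0.116, 0.139 and 0.101) with DESeq2 (adjusted P = 0.103) and with no filter on low counts (edgeR adjusted P = 0.0542). Itgb7, the partner of α4 and αE in lymphocytes, had FPKM of 2.34, 2.55 and 2.89 in MC and 15.9, 16.7 and 15.8 in MM. In rat it had 1 to 4 counts per library (FPKM 0.0448, 0.048 and 0.0704 in RC and 0.0184, 0.043 and 0.0155 in RM) and was not tested. Mouse Itgb7 rose by 2.91 ± 0.083 (edgeR adjusted P = 2.38e-40).

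Leukocyte and macrophage markers were measured beside Itgb2 and Itgb7. Of the 16 genes, 15 were in the mouse table and 4 were tested, 3 of which rose (75%, against 37.4% of all mouse genes tested). Library size alone left 2 of these 3 called (50%, against 25%). The summed FPKM of the list was 7.12, 6.4 and 7.55 in MC and 32.7, 34.4 and 33.8 in MM. Cd14, which chondrocytes and fibroblasts can also express, was the most abundant over both groups, with a mean FPKM of 1.87 in MC and 24.1 in MM, while in MC alone Cd68 was higher (3.52). Ptprc, the common leukocyte antigen CD45, had 3 counts over the MC libraries and 1 over the MM libraries. In rat 14 were in the table and 8 tested, of which 2 rose and 2 fell (25% each, against 18.3% and 16.8% of all rat genes tested). The rat sums were 21.2, 25.6 and 23 in RC and 37.6, 33.3 and 36 in RM. Cd14 was the most abundant (12.4 in RC and 22.7 in RM), and Ptprc was at 20 and 16 counts. The rat genes that rose were Cd14 and Cd68 (3.96 to 7.63), and those that fell were Laptm5 (3.26 to 1.08) and Csf1r (0.669 to 0.295), the last 3 named after their values were seen. No gene of this list that was in a table had 0 counts over a species, and the part of the list in the Itgb2 values was not tested.

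Itgb1 (ENSRNOG00000010966 and ENSMUSG00000025809), the common partner of the collagen, laminin and fibronectin receptors, was the integrin gene with the highest FPKM in both species. It had FPKM of 432, 357 and 385 in RC and 411, 409 and 382 in RM. In mouse it had 293, 299 and 299 in MC and 285, 284 and 284 in MM. The rat groups overlapped, and on the FPKM scale the MM libraries were slightly below the MC libraries. The log2 fold change in rat was 0.019 ± 0.076 (edgeR adjusted P = 0.871). In mouse it was 0.21 ± 0.025 with TMM (edgeR adjusted P = 1.87e-11) and -0.066 with library size alone (edgeR adjusted P = 0.0141), so its direction depends on the scaling. The mouse gene is at chr8:128685654-128733200 on the plus strand of GRCm38.

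Itgb5, a partner of αv, followed Itgb1 in level. Its FPKM was 83, 92.9 and 90.8 in RC and 82.1, 71.2 and 75.1 in RM, and 115, 117 and 116 in MC and 68.4, 70.7 and 69 in MM. The rat groups were apart by less than 1 FPKM and the mouse groups by more than 40. It changed by -0.24 ± 0.075 in rat (edgeR adjusted P = 0.0307) and by -0.46 ± 0.03 in mouse (edgeR adjusted P = 2.11e-21), where library size alone gave -0.74 for Itgb5. The rat call was lost without RC2, RC3, RM2 or RM3 (edgeR adjusted P of 0.0711, 0.0973, 0.144 and 0.102). Itgb3, a further partner of αv that is known from osteoclasts and, with αIIb, from platelets, had FPKM of 0.319, 0.324 and 0.337 in RC and 0.829, 0.565 and 1.03 in RM. These values rest on 17 to 19 and 35 to 59 counts per library. Its mouse FPKM was 1.5, 2.05 and 2.14 in MC and 12.2, 10.9 and 11.5 in MM. Each model library was above each control library in both species. Itgb3 rose by 1.28 ± 0.3 in rat (edgeR adjusted P = 0.00715) and by 2.88 ± 0.074 in mouse (edgeR adjusted P = 6.79e-43).

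Itgb8, the αv partner that activates latent TGF-β, had FPKM of 0.414, 0.395 and 0.312 in RC and 1.05, 1.3 and 1.12 in RM, on 23 to 36 and 74 to 118 counts per library. In mouse it had 2.5, 2.3 and 2.44 in MC and 2.06, 2.28 and 2.21 in MM. The rat groups were apart, and the mouse groups differed by less than 0.5 FPKM. Its log2 fold change was 1.61 ± 0.21 in rat (edgeR adjusted P = 0.000211) and 0.13 ± 0.072 in mouse (edgeR adjusted P = 0.0954, and 0.0451 without MM1), the latter -0.15 with library size alone. Itgb4, the hemidesmosome partner of α6, lay at 0.222 to 0.308 FPKM in rat and was not called (edgeR adjusted P = 0.532), and in mouse it lay at 0.863 to 0.984 in MC and 0.484 to 0.496 in MM (log2 fold change -0.66, edgeR adjusted P = 0.000196). Itgb6, the epithelial αv partner, had 0 to 9 counts per library in both species and was not tested.

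Within a library the α subunit genes can be set against each other on the FPKM scale without regard to scaling. The collagen-binding genes made up 18.5%, 19% and 18.7% of the summed α subunit FPKM in RC and 15.5%, 16% and 14.1% in RM. In mouse their share was 22.8%, 22.9% and 22.7% in MC and 4.79%, 4.99% and 5.01% in MM. The share of the RGD-binding genes was 37.8% in RC and 43% in RM on average, and 50.4% in MC and 74.1% in MM. That of the laminin-binding genes was 41.6% in RC and 40.3% in RM, and 24.8% in MC and 19.9% in MM. Thus Itga5 and Itgav made up most of the α subunit FPKM of the MM libraries. Itgb3 amounted to 0.368% of Itgb5 in RC and 1.06% in RM, and to 1.64% in MC and 16.7% in MM. These shares are descriptions and were not tested.

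**Figure D3:**
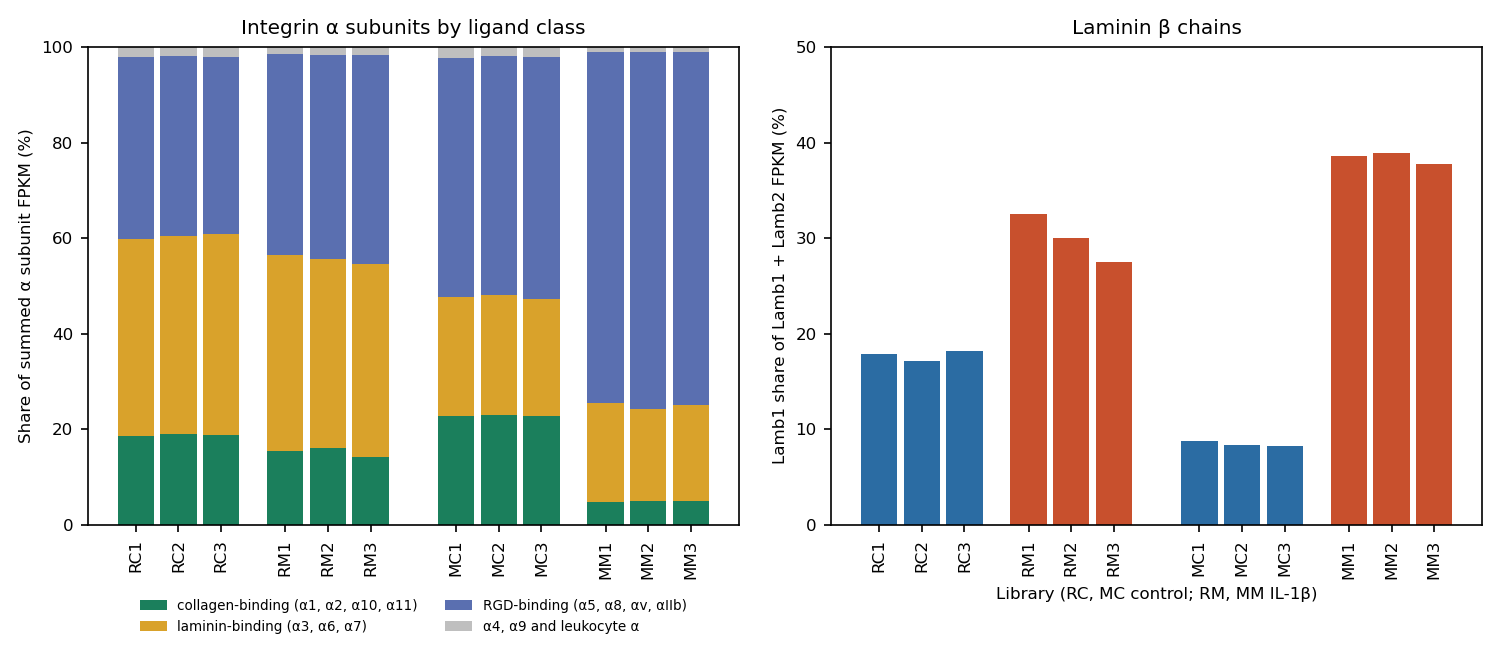
Left, share of summed integrin α subunit FPKM in each library by ligand class. Right, Lamb1 as a percentage of Lamb1 plus Lamb2 FPKM in each library, which is above 27% in each model library and below 19% in each control library.

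Among laminin α chains, Lama4, a chain of mesenchymal and vessel wall laminins, had the highest level in rat. Its FPKM was 34.1, 36.3 and 32.6 in RC and 34.9, 35.1 and 34.5 in RM, and 17.2, 17.2 and 17.7 in MC and 11.5, 11.2 and 12.7 in MM. The rat groups overlapped and the MM libraries were below the MC libraries. The log2 fold change was 0.0041 ± 0.067 in rat (edgeR adjusted P = 0.971) and -0.28 ± 0.037 in mouse (edgeR adjusted P = 7.4e-10), where library size alone gave -0.56 for Lama4. Lama5, the most widespread α chain of adult basement membranes, lay at 0.774 to 1.02 FPKM in rat (edgeR adjusted P = 0.882) and at 19 to 22 in MC and 19.5 to 20.1 in MM. Its mouse log2 fold change of 0.24 (edgeR adjusted P = 2.62e-08) turned to -0.042 with library size alone (edgeR adjusted P = 0.272).

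Lama2, the muscle and nerve chain, had FPKM of 1.13, 1.28 and 1.37 in MC and 0.372, 0.36 and 0.438 in MM, and 0.411, 0.4 and 0.345 in RC and 0.403, 0.37 and 0.264 in RM. It changed by -1.42 ± 0.11 in mouse (edgeR adjusted P = 9.46e-19), where the groups were apart, and its rat log2 fold change was -0.18 ± 0.21 (edgeR adjusted P = 0.543), with overlapping groups. Lama3, the α chain of skin basement membrane, had FPKM of 1.29, 1.03 and 1.16 in MC and 0.0511, 0.0523 and 0.0266 in MM, on 187 to 237 and 5 to 11 counts per library. This was the largest fall among the mouse members tested, at -4.43 ± 0.22 on the log2 scale (edgeR adjusted P = 6.49e-28). Lama1, the embryonic chain, had 3 to 9 counts per rat library and was not tested there, and in mouse it lay at 0.316 to 0.392 FPKM in MC and 0.13 to 0.174 in MM (log2 fold change -0.94, edgeR adjusted P = 0.000272).

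The laminin β chain genes Lamb1 and Lamb2 changed in opposite directions in both species. Lamb2, the β chain of kidney and synapse laminins, had FPKM of 38.4, 45.9 and 39.5 in RC and 32.8, 32.4 and 35.3 in RM, and 122, 124 and 125 in MC and 50.9, 50.2 and 52.2 in MM. Lamb1, the β chain common in embryonic laminins, had 8.37, 9.44 and 8.78 in RC and 15.8, 13.9 and 13.4 in RM, and 11.7, 11.3 and 11.2 in MC and 32.1, 31.9 and 31.7 in MM. For both genes each model library was outside the range of the control libraries. Lamb2 changed by -0.32 ± 0.081 in rat (edgeR adjusted P = 0.0129, and 0.0596 and 0.0602 without RM1 or RM2) and by -1.0 ± 0.028 in mouse (edgeR adjusted P = 2.1e-40). Lamb1 rose by 0.68 ± 0.087 in rat (edgeR adjusted P = 0.000181) and by 1.76 ± 0.034 in mouse (edgeR adjusted P = 1.3e-49). Lamb1 as a percentage of both was 17.9%, 17.1% and 18.2% in RC and 32.5%, 30% and 27.5% in RM, and 8.71%, 8.36% and 8.2% in MC and 38.6%, 38.9% and 37.8% in MM. Lamb3, the partner of Lama3 in skin, had 3.09, 3.92 and 2.96 FPKM in RC and 4.32, 3.47 and 3.43 in RM, and 2.72, 2.51 and 2.83 in MC and 0.762, 0.959 and 0.735 in MM. Its rat groups overlapped (log2 fold change 0.15, edgeR adjusted P = 0.431), and in mouse it changed by -1.43 ± 0.12 (edgeR adjusted P = 1.19e-17).

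Lamc1, the γ chain of most laminins, had FPKM of 65.2, 73.7 and 63.1 in RC and 61, 65.1 and 62.7 in RM, and 58.7, 59.5 and 58.2 in MC and 48.5, 47.4 and 47.8 in MM. The rat groups overlapped, and on the FPKM scale the MM libraries were below the MC libraries. Its log2 fold change was -0.11 ± 0.074 in rat (edgeR adjusted P = 0.257) and, with TMM, -0.017 ± 0.029 in mouse (edgeR adjusted P = 0.591), while with library size alone the mouse value was -0.30 (edgeR adjusted P = 5.2e-15). Lamc3 had 0 to 3 counts per rat library and was not tested there, and in mouse it stayed below FPKM 1 with 0.0457 to 0.105 in MC and 0.54 to 0.671 in MM (log2 fold change 3.20, edgeR adjusted P = 2.18e-15), on 5 to 11 and 65 to 80 counts per library.

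Fn1 (ENSRNOG00000014288 and ENSMUSG00000026193), which encodes fibronectin, had the highest count of all genes in each of the 12 libraries. By FPKM, which allows for its length, it ranked 4, 1 and 4 in RC, 2 in each RM and MC library, and 8, 9 and 8 in MM. Its counts were 1190183, 1274319 and 983575 in RC and 1294397, 1587536 and 1489227 in RM, with FPKM of 5690, 6530 and 5540 in RC and 7630, 7290 and 7400 in RM. In mouse the counts were 528386, 519265 and 553803 in MC and 567668, 530362 and 476893 in MM, with FPKM of 2640 in each MC library and 2420, 2320 and 2330 in MM. Each RM library was above the RC libraries, whereas on the FPKM scale each MM library was below the MC libraries. Fn1 took 4.98% of the counts in RC and 6.25% in RM on average, and 3.08% in MC and 2.76% in MM. The log2 fold change was 0.31 ± 0.063 in rat (edgeR adjusted P = 0.00326; limma on log2 FPKM gave 0.067). In mouse it was 0.12 ± 0.02 with TMM (edgeR adjusted P = 3.93e-07) and -0.16 with library size alone (edgeR adjusted P = 1.73e-11), so no direction is given for it. The mouse gene is at chr1:71585520-71653200 on the minus strand of GRCm38.

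The species were compared gene by gene, as the log2 fold change in mouse minus that in rat, for the 28 members tested in both. The difference passed edgeR's test for 22 of them (78.6%, against 63.8% of the 10912 shared genes tested), with the mouse value higher for 8 (28.6%, against 31.4%) and lower for 14 (50%, against 32.3%). This split rests on TMM and was not counted with library size alone, which shifted the mouse median by -0.279. Both species shared 1 estimate of the spread in this test, although the spread was smaller in mouse. Limma with a variance factor per species kept these calls. Species cannot be told apart here from any difference in culture or preparation between the rat and mouse samples. The members called down in both species were Itga10, Itga11, Itga9, Itgb5 and Lamb2 (17.9%, against 10.1% of the shared genes). Those called up in both were Fn1, Itgb2, Itgb3 and Lamb1 (14.3%, against 9.28%), of which Fn1 turns in mouse with library size alone. The fall was deeper in mouse for Itga10 (difference -0.69 ± 0.16, edgeR adjusted P = 0.00109) and Itga11 (-1.07 ± 0.12, edgeR adjusted P = 3.8e-07). It did not differ detectably for Itga9 (0.16 ± 0.18, edgeR adjusted P = 0.455). The rise was larger in mouse for Itgb3 (1.61 ± 0.32, edgeR adjusted P = 0.000323) and Lamb1 (1.08 ± 0.089, edgeR adjusted P = 1.42e-08).

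Itga1, Itga2 and Itga8 were called up in rat and down in mouse, 3 of the 28 members, where 12.5% of the shared genes tested were called in opposite directions. Their differences were -3.21 ± 0.14 for Itga1 (edgeR adjusted P = 2.93e-12), -2.50 ± 0.23 for Itga2 (edgeR adjusted P = 6.81e-08) and -4.10 ± 0.36 for Itga8 (edgeR adjusted P = 2.95e-08). Members called in mouse but not in rat were 7 that fell (Itga2b, Itga3, Itga6, Itgb4, Lama2, Lama4 and Lamb3), which is 25% against 22.5% of the shared genes. Another 7 rose, 25% against 24.5% (among them Itga4, Itga5, Itga7, Itgav, Itgb1 and Lama5), of which Itgb1 and Lama5 turn with library size alone. Calls in 1 species alone depend also on the spread between libraries, which was smaller in mouse. Itgb8 was called in rat alone, and Lamc1 in neither species. Among these the difference was 3.13 ± 0.25 for Itga7 (edgeR adjusted P = 9e-09), 1.22 ± 0.072 for Itgav (edgeR adjusted P = 1.65e-10) and -1.48 ± 0.18 for Itgb8 (edgeR adjusted P = 1.65e-06). The 6 members whose difference was not called were Itga2b, Itga9, Itgb1 (edgeR adjusted P = 0.0524), Itgb4, Lama5 and Lamc1. Fn1 was called with a difference of -0.20 ± 0.084 (edgeR adjusted P = 0.0497), and that call was lost without RC1, RC3, RM1, RM2, RM3, MC1, MC2, MC3, MM1, MM2 or MM3 (edgeR adjusted P of 0.103, 0.098, 0.0969, 0.0606, 0.0654, 0.0873, 0.0853, 0.0808, 0.0652, 0.117 and 0.114) and with DESeq2 (adjusted P = 0.0589). With library size alone the Fn1 difference was -0.49 (edgeR adjusted P = 5.91e-05). The Itgb5 difference of -0.22 ± 0.079 (edgeR adjusted P = 0.0236) was lost without RC1, RM1, MM1 or MM3 (edgeR adjusted P of 0.0572, 0.072, 0.0605 and 0.0576), and with library size alone it was -0.51.

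**Figure D4:**
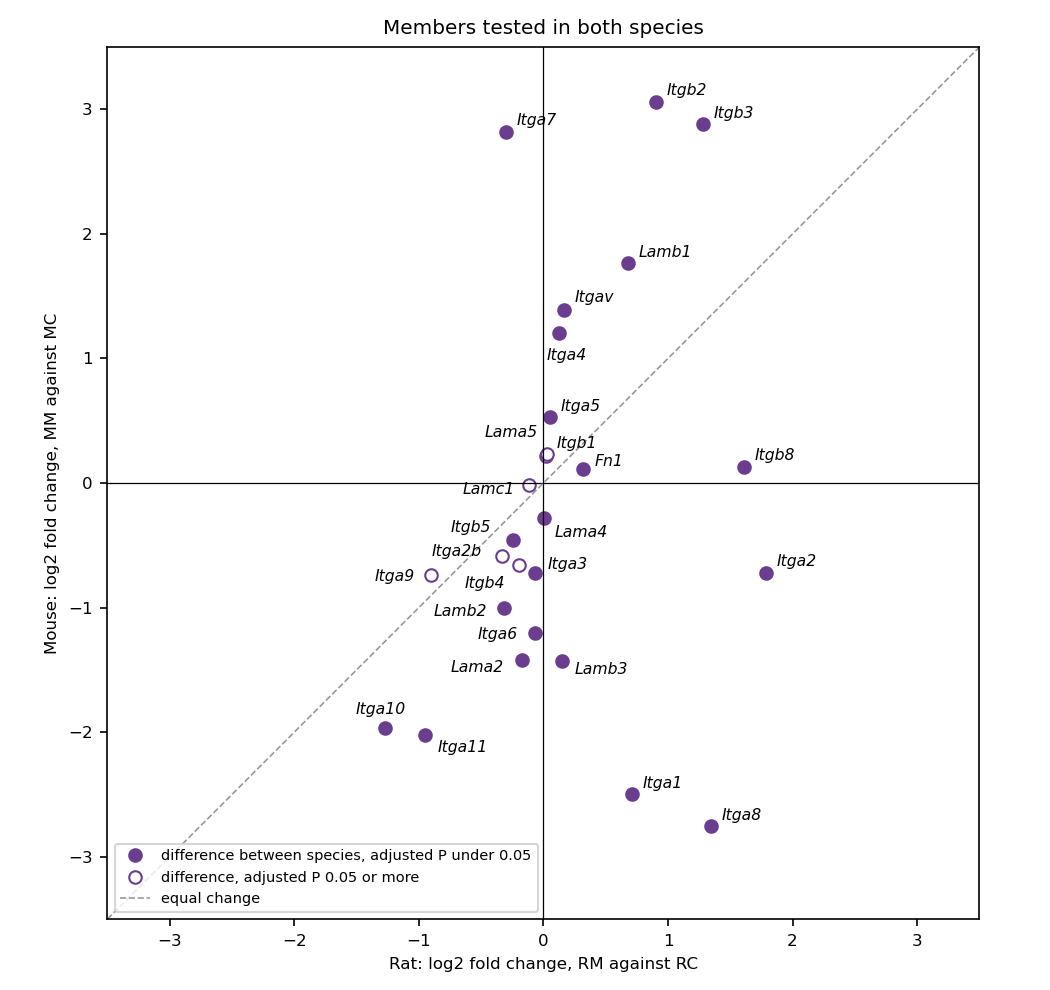
Log2 fold change of members tested in both species, rat on the horizontal and mouse on the vertical axis (TMM scale), filled where the difference between species had an adjusted P under 0.05; the dashed line marks equal change. Itga1, Itga2 and Itga8 lie at the lower right, and the mouse values of Fn1, Itgb1, Lama5 and Itgb8 lie below 0 with library size alone.

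The proteins that link integrins to the cytoskeleton form the adhesion machinery list of 33 genes, of which 30 were tested in each species. In rat 5 rose (16.7%, against 18.3% of all genes tested) and 6 fell (20%, against 16.8%), none past the study's criteria, with a median log2 fold change of -0.0074. Zyx (0.55 ± 0.084, edgeR adjusted P = 0.000588) and Lims1 (0.44 ± 0.13, edgeR adjusted P = 0.022) rose, and Tns2 (-0.67 ± 0.085, edgeR adjusted P = 0.000166) and Tns1 (-0.58 ± 0.08, edgeR adjusted P = 0.000282) fell. The Lims1 call was lost without RC2, RC3, RM2 or RM3 (edgeR adjusted P of 0.0545, 0.0756, 0.0725 and 0.0742). In mouse 17 rose (56.7%, against 37.4%) and 8 fell (26.7%, against 37.7%), with a median of 0.18. This split depends on the scaling, since with library size alone 13 were called as higher (43.3%, against 25%) and 15 as lower (50%, against 54.7%), with a median of -0.097. Fermt2, a kindlin that activates integrins, went from a mean FPKM of 20.6 to 46 and Bcar1 from 19 to 41.1. Vcl, which encodes vinculin, went from 36.6 to 9.05 and Tgfb1i1 from 18 to 8.07, while Fermt1 was at 0 counts in mouse.

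Of the 22 basement membrane partners of laminins, 21 were tested in rat, where 6 rose (28.6%, against 18.3% of all genes tested) and 6 fell (28.6%, against 16.8%). In mouse 22 were tested, 7 rose (31.8%, against 37.4%) and 14 fell (63.6%, against 37.7%), or 6 and 14 with library size alone (27.3% and 63.6%, against 25% and 54.7%). Sdc4, a syndecan co-receptor for fibronectin, rose in both species, with a mean FPKM of 71.7 in RC, 137 in RM, 103 in MC and 264 in MM. Col4a5, a chain of collagen IV, fell in both, with 12.4 in RC, 8.15 in RM, 34.4 in MC and 4.73 in MM. Col18a1 fell in rat from 43.6 to 22.6 and rose in mouse from 13 to 20.5. Col4a1 rose in rat (7.07 to 14.6) and fell in mouse (41 to 24). Nid2, the nidogen that joins laminin to collagen IV, fell in mouse from 132 to 9.94 (log2 fold change -3.45 ± 0.036, edgeR adjusted P = 1.06e-64) and in rat from 307 to 239 (edgeR adjusted P = 0.001).

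The list of other integrin ligands held 35 symbols, with Cyr61, Ctgf and Nov also entered under their newer symbols Ccn1, Ccn2 and Ccn3. In rat 24 genes were tested, 7 rising (29.2%, against 18.3% of all genes tested) and 11 falling (45.8%, against 16.8%). Of 27 tested in mouse 11 rose (40.7%, against 37.4%) and 16 fell (59.3%, against 37.7%) with TMM, while library size alone gave 5 higher and 19 lower (18.5% and 70.4%, against 25% and 54.7%). Beside Spp1, Fbn1 rose in rat from a mean FPKM of 21.6 to 46 and fell in mouse from 86.5 to 54.8. Tnc, the tenascin-C bound by α9β1, rose in mouse from 65.9 to 410 and was not called in rat (151 in RC and 166 in RM). Col2a1, bound by α10β1, fell in both, to a mean FPKM of 943 in RM and 93.7 in MM. Edil3, an RGD ligand of αv, fell in rat from 20 to 9.63, and its mouse call as higher (log2 fold change 0.16) turns with library size alone. Nov fell in mouse from 302 to 40.7 and rose in rat from 50.2 to 77.4. Fgb was at 0 counts in rat.

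Other cell marker lists were summed in each library, and their calls stand beside 18.3% of all genes tested rising and 16.8% falling in rat and 37.4% and 37.7% in mouse. Their mouse calls with library size alone stand beside 25% rising and 54.7% falling. Fibroblast and synovial markers had sums of 1690, 1830 and 1720 in RC, 1720, 1700 and 1690 in RM, 459, 464 and 458 in MC and 488, 473 and 478 in MM. Of these 10 genes 2 rose (20%) and 2 fell (20%) in rat, and 3 rose (33.3%) and 6 fell (66.7%) of 9 tested in mouse, or 1 and 7 with library size alone. Prg4, the lubricin gene of the cartilage surface and synovium, rose in both, with a mean FPKM of 8.49 in RC, 476 in RM, 12.9 in MC and 109 in MM. The most abundant of the list was Col3a1 in RC (917), Thy1 in RM (660) and Col3a1 in mouse (339 and 313), whose mouse log2 fold change of 0.16 turned to -0.12 with library size alone. Col3a1 fell in rat, and Thy1 and Twist1 fell in mouse. Postn rose in rat (mean FPKM 5.97 in RC and 11.3 in RM) and fell in mouse (9.97 in MC and 1.1 in MM). Epithelial markers summed to 13.5, 14.5 and 16.5 in RC, 2.92, 3.26 and 3.59 in RM, 7.36, 8.14 and 6.39 in MC and 43.6, 47 and 46.3 in MM, with Krt8 the most abundant in rat (13.5 and 2.77) and Krt19 in mouse (5.12 and 44.7). All 10 were in each table, of 3 tested in rat 2 fell, and of 4 tested in mouse 1 rose and 2 fell, or 1 and 3 with library size alone.

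Endothelial markers, of which 8 of 10 were in the rat table and 9 in the mouse table, summed to 6.83, 9.95 and 8.66 in RC, 7.44, 5.55 and 6.88 in RM, 1, 0.942 and 1.2 in MC and 1.35, 1.35 and 1.46 in MM. Egfl7 was the most abundant over both groups of each species (8.35 and 6.44 in rat, 0.391 and 0.536 in mouse, with Tek also at 0.391 in MC), the 1 tested in rat was not called, and 2 of 3 tested in mouse rose and 1 fell, or 1 and 1 with library size alone. Nerve and Schwann markers, all 8 in each table, summed to 414, 421 and 441 in RC, 214, 232 and 230 in RM, 48.6, 48.8 and 50.7 in MC and 38.4, 40 and 35.6 in MM. S100b, which chondrocytes also express, was the most abundant (367 and 171 in rat, 44.9 and 24.1 in mouse), 1 of 6 tested fell in rat, and 2 rose and 2 fell of 4 tested in mouse, where Ncam1, a cell adhesion gene, went from 3.05 to 11.2. The part of these lists in the changes of Lama2, Lama3, Lamb3, Itgb4 and Itga6 was not tested.

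**Figure D5:**
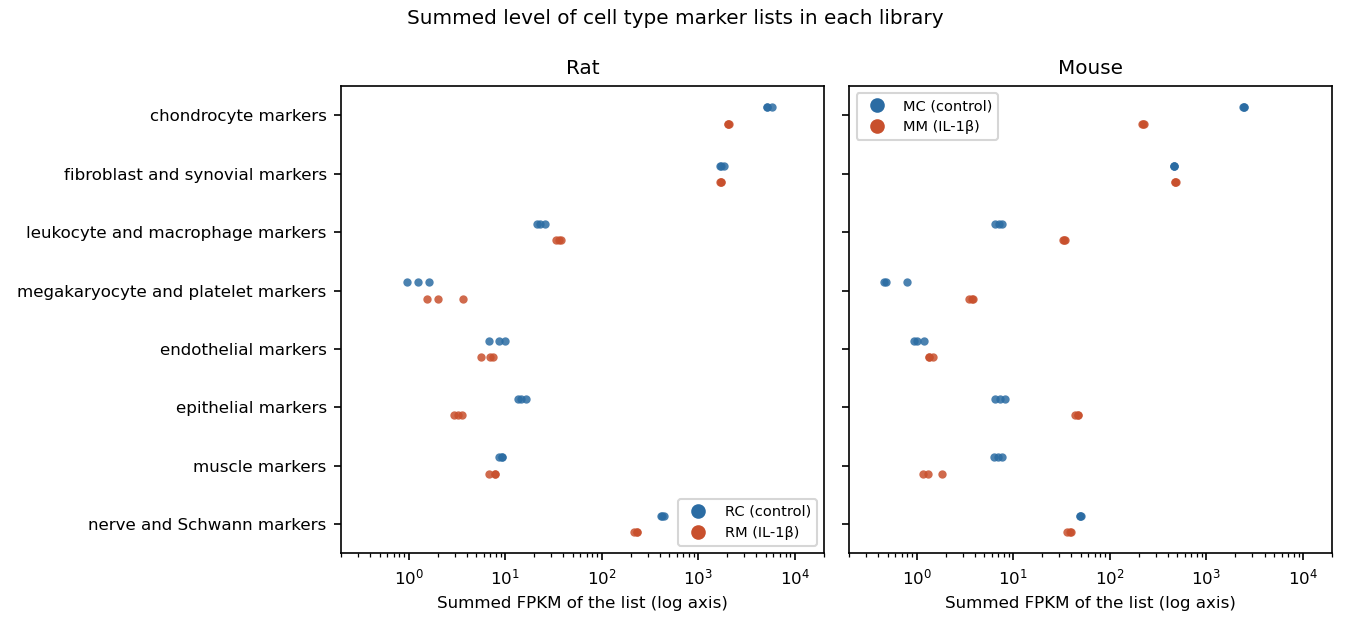
Summed FPKM of each list of cell type markers on a log axis, with 1 point per library (blue for control, red for model). The chondrocyte sum is lower in each model library, at 2030 to 2070 in rat and 213 to 227 in mouse, and the leukocyte sum, of which Cd14 is the largest part in each model group, is higher.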

How the data were processed

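A company sequenced the libraries on an Illumina HiSeq instrument. For each species the authors deposited raw counts per Ensembl gene and FPKM values derived from these counts; each FPKM equalled the count divided by a whole-number gene length and the library total within 0.1%. The submitters' processing notes list HISAT2, HTSeq 0.11.2, GRCm38 and Rnor_6.0; whether strand was used in counting is not given in the sources used here. Mouse positions are from GENCODE M21, whose merged exon lengths were within 1 base of the implied lengths for 36 of 36 members with counts.

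The tests used edgeR 4.0.16 under R 4.3.3 (filterByExpr, TMM, glmQLFit, glmQLFTest, Benjamini-Hochberg), 1 fit per species, and 1 fit of all 4 groups over the shared symbols for the difference between species. The libraries of both species shared 1 estimate of the spread in that last fit, and limma with a variance factor per species was an alternative to it. SE is from the fit. Alternatives were DESeq2 1.42.0, limma 3.58.1 on log2(FPKM + 1) or log2(FPKM + 0.1), other scalings and filters, a replicate block and leaving out each library; for the gene lists, library size alone was added after the data were seen. The study gives a fold change threshold and a P value, read here as log2 and unadjusted.

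Members and gene lists were chosen with earlier results of these data known, and the grouping by role and the shares were set after the values were seen. Some genes covered by these rules are not described here. Otherwise values in every library are given for Itga10, Itga5, Itgb1, Fn1, members past the study's criteria in either species, and the 3 α, 2 β and 3 laminin genes of highest mean FPKM in each species. From each list the 2 largest rises and 2 largest falls per species were named among called genes whose groups did not overlap and whose mean reached FPKM 10 in either group. The genes with RGD windows were added after their values were seen.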

Additional observations from a re-analysis of the deposited data

Results flagged for a closer look

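The test of the difference between species, as the log2 fold change in mouse minus that in rat, was passed by 22 members, among them those given here. Among integrin α subunits the difference was -3.21 for Itga1, -2.5 for Itga2, -0.69 for Itga10, -1.07 for Itga11, -0.655 for Itga3, -1.14 for Itga6 and -4.1 for Itga8, and it was 1.08 for Itga4, 0.479 for Itga5 (0.18 with library size alone, adjusted P = 0.0573), 3.13 for Itga7 and 1.22 for Itgav. Among β subunits it was 2.15 for Itgb2, 1.61 for Itgb3, -0.219 for Itgb5 (-0.51 with library size alone) and -1.48 for Itgb8. Among laminins it was -1.23 for Lama2, -0.283 for Lama4 (-0.58 with library size alone), 1.08 for Lamb1, -0.685 for Lamb2 and -1.58 for Lamb3, and for Fn1 it was -0.197 (-0.49 with library size alone).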

How the results depend on the processing

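Of 227 alternative values for the counts of members, 223 were within 1.5 times the reported count. The others were the rat members past the study's criteria with limma on log2(FPKM + 1), 3 in all, 2 upregulated and 1 downregulated, and with a log2 fold change of at least 1, where 1 was downregulated. Leaving out each library gave 11 to 13 members called in rat, 30 to 31 in mouse and 20 to 23 whose change differed between species. With a mean FPKM of 0.5 or 2 in place of 1, 25 or 19 members were expressed in rat and 30 or 23 in mouse. Of 1779 alternative log2 fold changes and differences over 124 results, 1711 kept their direction and side of the threshold, 40 lost the call, 5 gained it and 23 turned. In mouse, library size alone, limma on log2(FPKM + 1) and limma on log2(FPKM + 0.1) gave -0.042, -0.037 and -0.039 for Lama5, -0.15, -0.10 and -0.14 for Itgb8, -0.066, -0.065 and -0.065 for Itgb1, -0.12, -0.12 and -0.12 for Col3a1, and -0.16, -0.16 and -0.16 for Fn1. In rat, uncalled values near 0 turned: Lama4 to -0.0014 with DESeq2 and -0.0014 with RLE size factors and to between -0.032 and 0.040 without 1 library, Itga3 to between -0.16 and 0.0048, Itgb1 to between -0.048 and 0.080, and Itga5 to between -0.0094 and 0.11. Leaving out 1 library also moved uncalled rat values that kept their direction. Lamb3 lay between 0.037 and 0.28 and Itga7 between -0.55 and -0.081. Lama2 ranged from -0.29 to -0.010 and Lamc1 from -0.16 to -0.050. The difference between species of Itga5 was 0.18 and lost its call with library size alone (adjusted P = 0.0573). The cause was not tested. Replicate numbers did not pair the samples (correlations of same-numbered samples of 0.0241, -0.0976 and 0.0849 in rat and 0.000906, 0.0149 and 0.00457 in mouse). With a replicate block 11 members were called in rat, 30 in mouse and 20 for the difference. The rat calls lost with that block were those of Itgb2 and Itgb5, and the differences lost were those of Fn1 and Itgb5. Limma on log2(FPKM + 1) gave smaller changes for members of low level, such as -1.05 for Lama3 in mouse. The low counts of Itgb2, Itgb3, Itgb8 and Itga7 in rat and of Itga8, Lama3 and Lamc3 in mouse limit how precisely their changes are known.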
